A study of Mus musculus with 10 samples.

Results

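The transcripts described here are 10 genes of the fat cell program, measured in whole pieces of mouse mammary tumor. The genes are Adipoq, Lep, Plin1, Cidec, Cfd, Retn, Plin4, Fabp4, Lpl and Pparg, taken by their symbol from a table of 21959 genes, and all 10 were found. They were divided by where they are known to be made. Adipoq, Lep, Plin1, Cidec, Cfd and Retn are made almost only by adipocytes in healthy mouse tissue. Plin4 is also made by skeletal muscle, and Fabp4, Lpl and Pparg are also made by macrophages or endothelial cells.

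Cells of 4T1, a BALB/c mammary carcinoma line that serves as a triple-negative breast cancer model, had been injected under the skin of the abdomen of female BALB/c mice aged 5 to 6 weeks. The 5 mice of the exercise group (E) had access to voluntary running, the 5 mice of the non-exercise group (NE) had no intervention, and 1 tumor per mouse was taken at 21 days for mRNA sequencing. Both groups were injected with these cells, and no group was without a tumor. The libraries held 15045613 to 20646763 counted reads in E and 18706032 to 23092251 in NE. A gene with 0 reads in the deepest library, NE1, could still be present at up to 0.130 CPM (reads scaled to the total count of the library), the value of 3 reads there. The tumors are called E1 to E5 and NE1 to NE5 by their labels.

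White adipocytes store triglyceride in a single large droplet, whose surface is coated by perilipins and enlarged by the protein Cidec, and they secrete hormones such as adiponectin and leptin. The nuclear receptor Pparg, together with C/EBP factors, switches on most of this program during fat cell formation. The mammary gland of the mouse lies in a fat pad, and a tumor under the abdominal skin grows close to subcutaneous fat and to the muscle of the body wall. In whole tumor pieces, fewer cells of a type and less RNA per cell cannot be told apart.

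The labelled tissue was checked first. The listed markers of epithelial tumor cells (Epcam, Krt8, Krt18 and Cdh1) were low, with a summed level of 2.39 to 4.57 FPKM in E and 2.61 to 5.99 FPKM in NE. FPKM is the read density, scaled by gene length and library size, and levels of different genes are compared here on this scale only. Krt8 was at 0 in 1 tumor and had a median of 0.0615 FPKM, and the medians of Krt18 and Epcam were 0.209 and 0.464 FPKM. The macrophage markers summed to 911 to 3070 FPKM over the 10 tumors, and no tumor lacked any of the 11 markers on that list. Cdh1, the highest of the 4 epithelial markers, was present in all 10 tumors, between 1.42 and 4.44 FPKM with a median of 2.01 FPKM. On Krt8, Krt18 and Epcam the data go against the label of a mammary carcinoma. Cdh1 was present but low, with its highest level in NE5, the tumor with keratinocyte markers, and its source was not tested. The name 4T1 is used here as given in the methods of the study.

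In these tumors the adipocyte genes were found at low and very uneven levels, and 1 tumor of the non-exercise group, NE4, held most of the reads of the 6 adipocyte-restricted genes and of Plin4. For none of the 10 did the difference between E and NE pass the test. Adipoq, Plin1, Cidec, Cfd, Retn and Plin4 went up and down together from tumor to tumor. Fabp4 and Lpl had at least 198 reads in every tumor and moved with those genes only in part. For Pparg no relation with Adipoq passed the test.

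Promoter sequence is shown for 6 of the genes, chosen by the motifs they hold, as the 250 bases before an annotated start in RefSeq (GRCm38.p6), written 5′ to 3′ on the strand of the gene. Windows were at hand for 8 of the 10 genes, 11 windows in all. Adipoq and Cfd are shown as examples that hold none of the motifs searched. The windows of Retn, of Plin4 and of the upstream of 2 Cidec starts held none either and are not shown. Lep, Plin1, the downstream of 2 Cidec starts and the third of 3 Pparg starts are shown because each holds the C/EBP motif TTGCNNAA, whose matches on either strand are in capitals.
Adipoq, chr16:23146286-23146535, forward strand: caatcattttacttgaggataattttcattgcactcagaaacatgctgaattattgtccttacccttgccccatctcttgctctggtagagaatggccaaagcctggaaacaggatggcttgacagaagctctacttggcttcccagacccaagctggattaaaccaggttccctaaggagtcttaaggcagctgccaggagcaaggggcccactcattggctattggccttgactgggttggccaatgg
Cfd, chr10:79890603-79890852, forward strand: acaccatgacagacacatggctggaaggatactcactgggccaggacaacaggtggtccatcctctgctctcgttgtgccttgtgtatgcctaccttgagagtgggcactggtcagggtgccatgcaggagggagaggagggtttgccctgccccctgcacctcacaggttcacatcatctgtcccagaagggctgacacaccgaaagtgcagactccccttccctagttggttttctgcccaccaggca
Lep, chr6:29059971-29060220, forward strand: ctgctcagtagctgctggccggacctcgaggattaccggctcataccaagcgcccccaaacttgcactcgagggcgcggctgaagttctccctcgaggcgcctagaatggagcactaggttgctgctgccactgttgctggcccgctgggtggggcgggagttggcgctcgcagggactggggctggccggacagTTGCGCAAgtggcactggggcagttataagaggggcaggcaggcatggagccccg
Plin1, chr7:79732777-79733026, reverse strand: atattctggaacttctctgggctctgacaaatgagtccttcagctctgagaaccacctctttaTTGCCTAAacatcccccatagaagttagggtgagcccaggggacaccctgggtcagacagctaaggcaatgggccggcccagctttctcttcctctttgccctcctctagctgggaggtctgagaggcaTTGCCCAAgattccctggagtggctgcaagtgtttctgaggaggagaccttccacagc
Cidec, chr6:113434765-113435014, reverse strand: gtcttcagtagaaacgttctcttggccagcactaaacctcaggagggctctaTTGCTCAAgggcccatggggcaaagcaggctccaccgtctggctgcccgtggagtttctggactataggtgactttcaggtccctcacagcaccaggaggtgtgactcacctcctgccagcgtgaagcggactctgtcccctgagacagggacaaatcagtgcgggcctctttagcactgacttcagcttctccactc
Pparg, chr6:115421816-115422065, forward strand: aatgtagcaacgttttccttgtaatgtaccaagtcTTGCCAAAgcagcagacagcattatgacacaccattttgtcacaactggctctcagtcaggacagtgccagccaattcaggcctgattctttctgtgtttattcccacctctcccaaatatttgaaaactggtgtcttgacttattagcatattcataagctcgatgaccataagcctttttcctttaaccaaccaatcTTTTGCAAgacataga

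The C/EBP motif was present in 4 of the 11 windows, beside 9.56% of all 32851 promoter windows of the same length. Plin1 and this Pparg window held 2 matches each, and the match in Lep began 55 bases before the start. The nuclear receptor half-site AGGTCA was present only in the other 2 Pparg windows, beside 14.0% of all windows, and a direct repeat of 2 copies of AGGNCA with any 1 base between them was in 0 of the 11 windows, beside 0.338%. TATAAA was in 1 window, of Pparg, beside 12.4%, and CACGTG in 0, beside 6.02%. Both strands were searched, and a match counted with any overlap with another. These are matches of letters in a short window and not measured binding.

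Among the secreted products of fat, Adipoq, which encodes the hormone adiponectin, was the reference for the rest. Adipoq (ENSMUSG00000022878, chr16:23146536-23158028, forward strand in GRCm38) had 3, 81, 18, 23 and 2 reads in E1 to E5 and 0, 9, 27, 257 and 16 reads in NE1 to NE5. NE4 alone held 58.9% of the 436 reads, and E2 was the highest of E. Scaled to the total count, NE4 was at 11.2 CPM (95% Wilson interval 9.91 to 12.7) and E2 at 4.34 CPM (3.50 to 5.40). These intervals cover counting error only, and they overlapped neither each other nor that of any other tumor. Next came E4 (0.826 to 1.86 CPM), NE3 (0.817 to 1.73), E3 (0.552 to 1.38), NE5 (0.460 to 1.22) and NE2 (0.253 to 0.914), whose intervals all overlapped. E1 and E5 had upper limits of 0.427 and 0.485 CPM, and NE1 had 0 reads. The mean level and its SD over 5 tumors were 0.975 ± 1.26 FPKM in E and 1.97 ± 3.45 FPKM in NE, so that in both groups the SD exceeded the mean.

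Cfd encodes adipsin, a serine protease that acts as complement factor D and is one of the most abundant fat cell transcripts. Cfd (chr10:79890853-79892655, forward strand) had 22, 159, 69, 63 and 3 reads in E1 to E5 and 1, 39, 106, 682 and 92 reads in NE1 to NE5. It was the highest of the adipocyte-restricted genes per length, with a median of 3.66 FPKM over the 10 tumors and 32.2 FPKM in NE4. The same tumors were at the ends of the order as for Adipoq, with NE4 and E2 at the top and E5 and NE1 at the bottom.

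Retn, which encodes resistin, a hormone made by mouse white fat (chr8:3655770-3660110, forward strand), had 1, 22, 6, 6 and 0 reads in E1 to E5 and 1, 1, 10, 80 and 5 reads in NE1 to NE5. Lep, which encodes the satiety hormone leptin (chr6:29060220-29073877, forward strand), had 0, 4, 1, 0 and 0 reads in E1 to E5 and 0, 3, 0, 14 and 4 reads in NE1 to NE5. Lep was listed at 0 in 5 tumors, and its 26 reads over all libraries allow no order among most of them. Retn and Lep were too low for the filter on low counts and were not among the genes tested.

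On the lipid droplet, Plin1 is the perilipin that guards the stored fat against lipases. Plin1 (chr7:79720218-79732903, reverse strand) had 3, 31, 17, 16 and 0 reads in E1 to E5 and 0, 4, 17, 151 and 26 reads in NE1 to NE5. Cidec (also known as Fsp27), which lets droplets fuse and grow (chr6:113424634-113435760, reverse strand), had 4, 36, 16, 16 and 0 reads in E1 to E5 and 0, 9, 31, 185 and 20 reads in NE1 to NE5. Both genes were at 0 in E5 and NE1, and NE4 held 57.0% of the reads of Plin1 and 58.4% of those of Cidec. Plin4, a perilipin of fat and of muscle, had 27, 121, 35, 33 and 11 reads in E1 to E5 and 3, 37, 64, 881 and 69 reads in NE1 to NE5. With 68.8%, Plin4 had the largest share of reads in NE4 of the 10 genes, and its level there, 6.05 FPKM, was 5.92 times that of the next tumor. An exon of Plin4 (chr17:56100591-56109803, reverse strand) overlaps the gene Hdgfl2 on the opposite strand, and whether the counting used strand is not given in the sources used here.

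**Figure D1:**
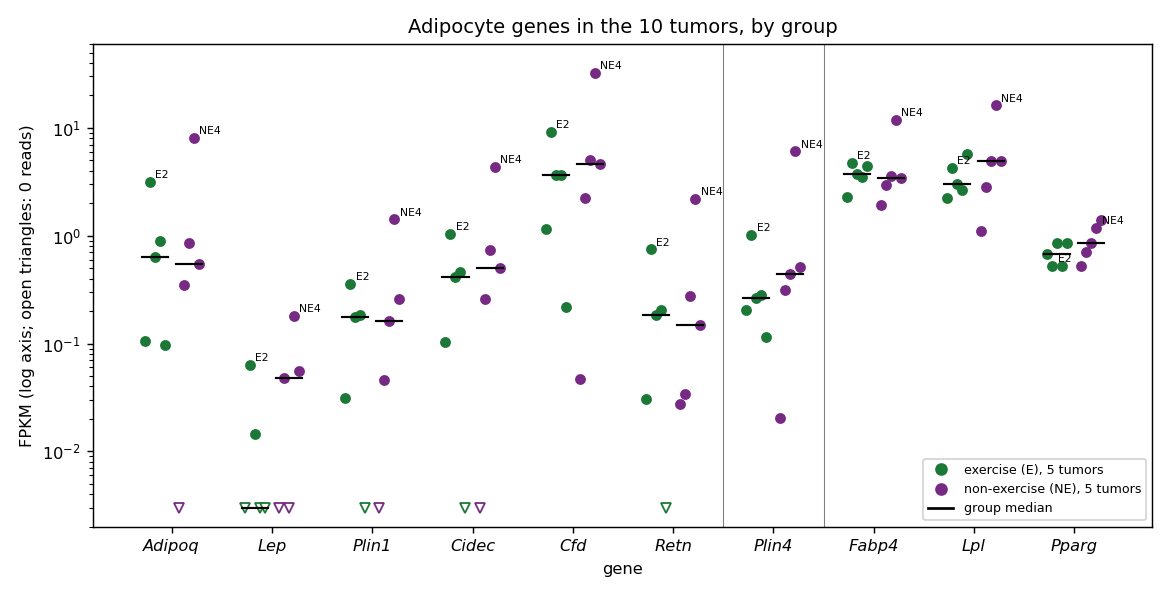
The level of each gene in FPKM (y axis, log scale) in the 5 tumors of E (green) and the 5 of NE (purple), with the group median as a black line and tumors with 0 reads as open triangles at the foot. Genes left of the first grey line are adipocyte-restricted, Plin4 stands between the lines, and Fabp4, Lpl and Pparg on the right are also made by other cells. NE4 is the highest point for 9 genes, and the points of E and NE overlap for all 10.

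Of the genes that other cells also make, Fabp4 and Lpl had at least 198 reads in every tumor. Fabp4, a carrier of fatty acids in fat cells that capillary endothelium and macrophages also make, had 213, 397, 344, 293 and 297 reads in E1 to E5 and 198, 249, 367, 1226 and 326 reads in NE1 to NE5. Lpl, the lipase that frees fatty acids from lipoproteins and is also made by muscle and macrophages, had 486, 837, 657, 519 and 904 reads in E1 to E5 and 266, 554, 1165, 3885 and 1096 reads in NE1 to NE5. NE4 was again the highest for both, but it held only 31.4% of the Fabp4 reads and 37.5% of the Lpl reads. E5, with 2 reads of Adipoq, had the second highest Lpl level (5.73 FPKM) and the third highest Fabp4 level (4.40 FPKM).

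Pparg, the receptor that drives fat cell formation and is also active in macrophages (chr6:115360951-115490399, forward strand), had 41, 29, 52, 29 and 38 reads in E1 to E5 and 36, 39, 58, 80 and 89 reads in NE1 to NE5. It was the only gene of the 10 whose highest tumor was not NE4, as NE5 reached 1.41 FPKM and NE4 1.18 FPKM. E2, the second highest tumor for Adipoq, was about equal in Pparg to NE1 and E4 at the low end (0.527, 0.528 and 0.529 FPKM). The counts are per gene, so transcripts from the 3 annotated starts, of which the fat cell form uses an internal one, could not be told apart.

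The table's own gene lengths affect how these levels compare. For Fabp4 the length is 4489 bases, the whole gene from start to end in GRCm38 (chr3:10204088-10208576, reverse strand), while its coding transcript has 896 nt. The median level of 3.56 FPKM would be 17.8 with the length of that transcript. For Lpl (chr8:68880491-68907448, forward strand) the lengths are 10478 and 4115, and the median of 3.66 FPKM would be 9.33. For Adipoq the lengths were nearly equal (1381 and 1292), so that per spliced transcript Fabp4 and Lpl stood further above Adipoq than the FPKM show. None of this alters a comparison of 1 gene between tumors.

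The question of the study design is whether voluntary exercise changed the tumors. By the quasi-likelihood test of edgeR, adjusted after Benjamini-Hochberg, 0 of the 8 adipocyte genes tested were called (a change of 2-fold or more with an adjusted p of 0.05 or less), beside 0% of all 13517 genes tested. With an unadjusted p up to 0.05, the count was also 0 of the 8, beside 4.86% of all genes. The tumors of E and NE overlapped for all 10 genes, while 0.725% of all genes tested had groups that did not overlap. The adjusted p of the 8 genes lay between 0.897 and 0.914, and the lowest over all genes was 0.897 as well.

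The estimates of all 10 genes were lower in E, and each was within 2 standard errors of 0. In log2 fold change of E minus NE with its standard error, Adipoq was at -1.09 ± 1.28 (adjusted p = 0.914, edgeR's quasi-likelihood test). Plin4 had the largest estimate of the genes tested, -2.03 ± 1.16 (unadjusted p = 0.110), and Pparg one of the smallest, -0.49 ± 0.298 (unadjusted p = 0.133). On log2(FPKM + 1), an exact permutation test (two-sided) over all 252 assignments of 5 and 5 tumors gave p = 0.730 for Adipoq, 0.571 for Plin4, 0.897 for Fabp4 and 0.183 for Pparg, with 0.00793651 as the smallest p it can give. The other 6 genes had p of 0.405 to 0.683 in that test. For Lep and Retn, the fit without a filter gave -1.79 ± 1.27 and -1.25 ± 1.21, with adjusted p of 0.820 and 0.842.

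For 8 of the 10 genes the direction of the estimate turned when NE4 was left out, from below 0 to above 0. Lep and Pparg stayed below, at -0.62 ± 1.27 and -0.37 ± 0.310. Pparg moved most without NE5, its highest tumor and the one with keratinocyte markers, to -0.29, and Lep was at -3.40 without E2. Adipoq moved from -1.09 to 1.14 ± 1.05, Plin4 from -2.03 to 0.22 ± 0.774 and Fabp4 from -0.41 to 0.32 ± 0.233. The median over the 8 genes tested moved from -1.23 to 0.23, while that over all genes tested was -0.01 with all tumors and -0.00401 without NE4. The lowest adjusted p of the 10 genes without NE4 was 0.863 (edgeR's quasi-likelihood test). Group medians, which 1 tumor moves less, were lower in E for 6 of the 10 genes and higher in E for 4. They were lower in E for Lpl (3.04 FPKM in E and 4.89 in NE), Cfd (3.63 and 4.67), Pparg (0.672 and 0.864), Cidec (0.418 and 0.504), Plin4 (0.267 and 0.444) and Lep (0 and 0.0478). They were higher in E for Fabp4 (3.72 and 3.40), Adipoq (0.632 and 0.542), Retn (0.184 and 0.148) and Plin1 (0.177 and 0.161).

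**Figure D2:**
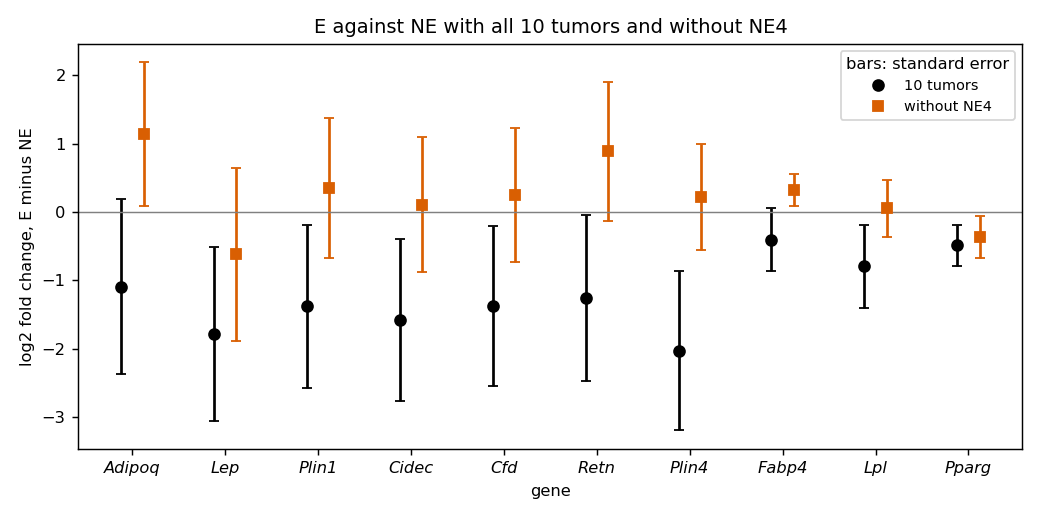
The log2 fold change of E minus NE (y axis) for each gene, with all 10 tumors (black circles) and without NE4 (orange squares). Bars are standard errors, and Lep and Retn come from the fit without a filter. All 10 black circles lie below 0, and 8 of the 10 orange squares lie above it, none by as much as 2 standard errors.

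NE4 was far from the other tumors in most of these genes. It was the highest tumor for 9 of the 10, beside 19.7% of all genes tested. In CPM, NE4 was at 23.0 times the median of the other 9 tumors in Plin4, 15.5 times in Adipoq, 15.4 times in Retn, 10.8 times in Cidec, 9.32 times in Cfd and 9.24 times in Plin1. The genes with other sources were at 5.51 times (Lpl), 3.60 times (Fabp4) and 1.74 times (Pparg), and the median of this ratio over all genes tested was 0.974. The spread over the 10 tumors, as the SD of log2(CPM + 1), had a median of 0.982 over the 8 genes tested, beside 0.179 over all genes tested. Of the genes tested, 98.9% had a lower SD than Cfd, 98.1% than Adipoq and 82.6% than Pparg.

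**Figure D3:**
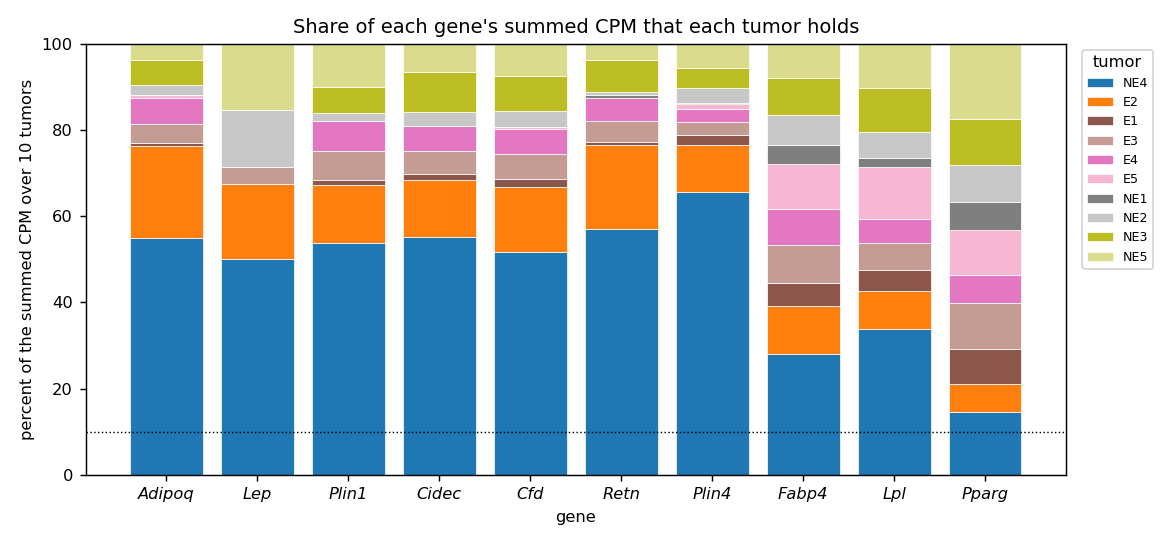
The share of each gene's summed CPM (y axis, percent) that each of the 10 tumors holds, as stacked bars with NE4 at the foot and E2 above it. The dotted line at 10% is the share of a tumor if all were equal. NE4 holds 51.8% to 65.6% for 6 of the first 7 genes, 28.0% for Fabp4, 33.8% for Lpl and 14.5% for Pparg.

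How closely the genes followed each other was measured against Adipoq over the 10 tumors, on log2(FPKM + 1). Retn (Pearson's r = 0.982, Spearman's rho = 0.976), Cidec (0.969 and 0.936), Plin1 (0.948 and 0.912), Plin4 (0.942 and 0.842) and Cfd (0.935 and 0.939) followed it closely. In 100000 permutations, with adjustment over 39 relations, p was at most 0.00179 for these 5 by r and at most 0.0275 by rho. Fabp4 (r = 0.896, rho = 0.697) and Lpl (0.776 and 0.455) passed by r, with adjusted p of 0.00851 and 0.0411 by permutation, but not by rho, with 0.153 and 0.437. Lep (0.868 and 0.588) likewise passed by r only, with adjusted p of 0.0266 and 0.241 by permutation. For Pparg, r was 0.265 and rho 0.127 (adjusted permutation p = 0.497 and 0.952).

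Tumors E2 and NE4 are the farthest from the median of Adipoq, and the relations were computed again without them. Over the other 8 tumors, r was 0.948 for Cidec, 0.931 for Retn and 0.924 for Cfd (adjusted permutation p = 0.0245 for each). It was 0.854 for Plin1 and 0.768 for Plin4, with adjusted permutation p of 0.171 and 0.207. For Fabp4 it was 0.541, for Lpl 0.394, for Pparg 0.235 and for Lep 0.148 (adjusted permutation p = 0.656, 0.678, 0.955 and 0.955). Without those 2 tumors, the relations of Plin1, Plin4, Fabp4, Lpl and Lep with Adipoq thus no longer passed. Fewer tumors and a narrower range of Adipoq also make it harder to pass. All of these genes share their libraries and their scaling, and depth was not adjusted for beyond FPKM.

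**Figure D4:**
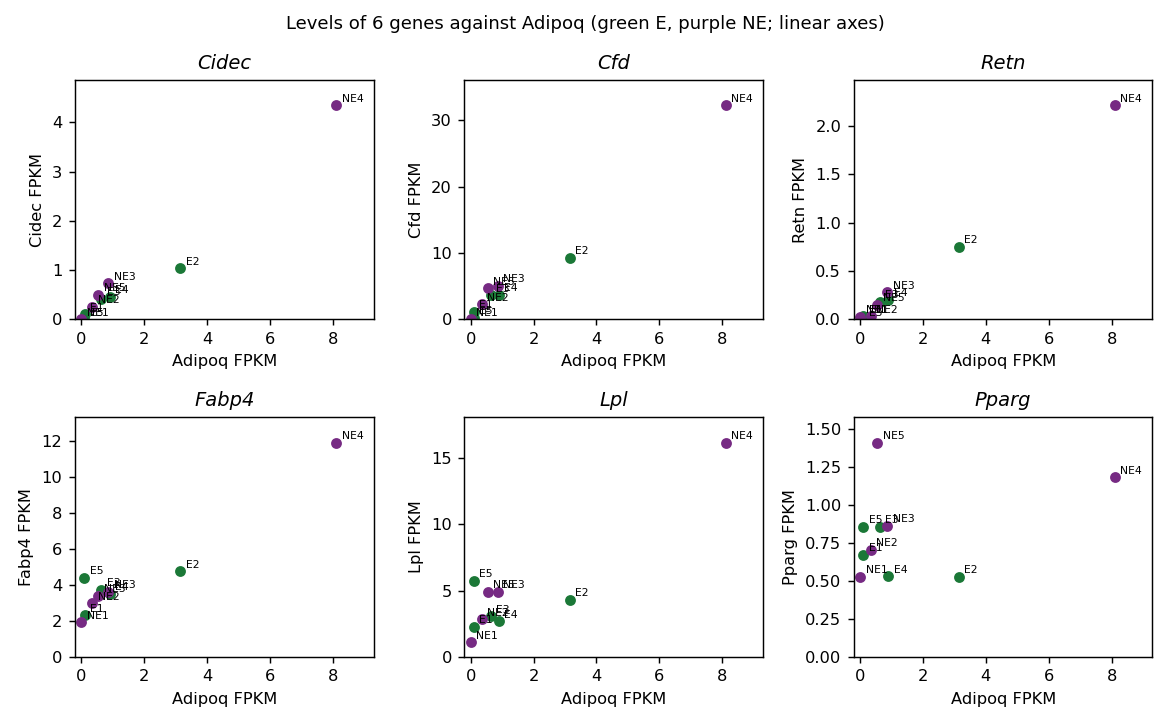
The level of 6 genes (y axes, FPKM) against that of Adipoq (x axes, FPKM) in the 10 tumors, on linear axes, with E in green and NE in purple. Cidec, Cfd and Retn climb with Adipoq from the lowest tumors to NE4. Fabp4 and Lpl start well above 0 at the lowest Adipoq, where E5 is at 4.40 and 5.73 FPKM. Pparg is about equally low in E2, the tumor with the second highest Adipoq, and in NE1, with 0 reads of Adipoq.

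The ratio to Adipoq, of FPKM to FPKM, puts the same values another way in the 7 tumors with at least 9 reads of Adipoq. Adipoq is the divisor and is highest in NE4 and E2, so the ratios are no separate evidence. Fabp4 was at 1.47 times Adipoq in NE4 and 1.51 times in E2, and at 3.92 to 8.51 times in E3, E4, NE2, NE3 and NE5. Lpl was at 1.99 times in NE4 and 1.36 times in E2, and at 2.97 to 9.03 times in the other 5. Cfd, an adipocyte-restricted gene, ranged less, from 2.94 times in E2 to 8.61 times in NE5, with 3.97 times in NE4. In E5, 297 reads of Fabp4 and 904 of Lpl stood beside 2 reads of Adipoq, and in NE1, 198 and 266 stood beside 0.

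Over all 13516 other genes tested, ranked by rho with Adipoq on log2(CPM + 1), Cidec came at rank 7, Cfd at 9, Plin1 at 13 and Plin4 at 40. Fabp4 came at rank 243, Lpl at 1637 and Pparg at 4869. The 10 genes most like Adipoq were Fyco1 (rho = 0.988), Egf, Phkb, Cyp2e1, Hook1, Asb4, Cidec, Map1lc3a, Cfd and Mlf1 (rho = 0.915). With 10 tumors many genes reach such values, and the order among them is a description only.

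Markers of other cell types moved with some of these genes. The 10 adipocyte markers, 7 of which are genes described above, summed to 0.978 to 16.6 FPKM in E and 0.248 to 55.8 FPKM in NE, and 5 of the 10 were at 0 in both E5 and NE1. The 12 skeletal muscle markers summed to 139 to 1821 FPKM in E, with E2 the highest, and 5.22 to 11697 FPKM in NE, with NE4 the highest. All 11 muscle markers tested were highest in NE4, beside 19.7% of all genes tested. The median over these markers of NE4 over the median of the other 9 tumors was 57.0. Myh4, a fast myosin, reached 1235 FPKM in NE4 and was at 0 in 1 tumor. Tnnc2, at 0 in 7 tumors, never passed 0.163 FPKM.

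The muscle score, the mean of log2(CPM + 1) over that list, had r of 0.815 with Adipoq, 0.798 with Plin4, 0.795 with Fabp4 and 0.762 with Lpl, and 0.188 with Pparg. Of the 10 genes, 7 passed by r at an adjusted permutation p of at most 0.05, and 0 by rho. Without NE1 and NE4, r was 0.525 for Adipoq, 0.468 for Plin4, 0.109 for Fabp4 and -0.104 for Lpl, and the relation passed for 0 of the 10. The order of the tumors differed in part, since E1 had 636 FPKM of muscle markers beside 1.81 FPKM of adipocyte markers, and NE5 had 56.8 beside 7.35. The part of muscle in the levels of Plin4, Fabp4 and Lpl was not tested.

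The macrophage and endothelial scores were each compared with all 10 genes, and 0 of the 10 passed with either score, by r or by rho. Fabp4, Lpl and Pparg are the genes with these other sources, of which Lpl was listed as made by macrophages and not by endothelium. Against the macrophage score, r was 0.672 for Lpl, 0.527 for Fabp4 and 0.389 for Pparg, with adjusted permutation p of 0.118, 0.240 and 0.341. Against the endothelial score, r was 0.688 for Fabp4, 0.659 for Lpl and 0.393 for Pparg, with adjusted permutation p of 0.0708, 0.0928 and 0.341. Among the adipocyte-restricted genes and Plin4, r was 0.277 (Retn) to 0.356 (Cfd) with the macrophage score. With the endothelial score it was 0.185 (Cfd) to 0.520 (Plin4), a range that includes the value of Pparg. The endothelial relations rested on E5 and NE4, since without these tumors r was -0.0586 for Fabp4 and -0.282 for Lpl. The summed endothelial markers were 47.6 FPKM in E5 and 42.1 FPKM in NE4, against 25.8 to 33.9 FPKM in the other 8 tumors, and no endothelial marker was at 0 in any tumor.

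**Figure D5:**
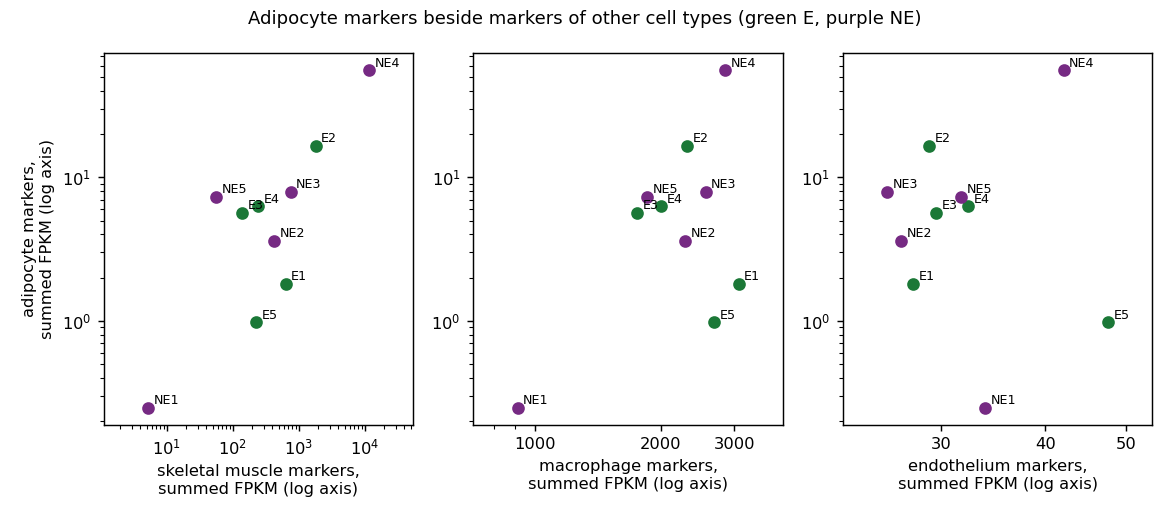
The summed FPKM of the adipocyte markers (y axis, log scale) against that of the skeletal muscle, macrophage and endothelial markers (x axes, log scale) in the 10 tumors, with E in green and NE in purple. NE4 and E2 are the highest and NE1 the lowest for both fat and muscle, while E5 is high for endothelium and near the foot for fat.

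Relatives of the 10 genes that other cells use were also measured, and Plin2 and Plin3 were above Plin1 and Plin4 in every tumor. Plin2, the perilipin of most cell types, lay between 71.7 and 101 FPKM, Plin3 between 24.8 and 35.4 FPKM, and Fabp5, an epithelial and macrophage carrier, between 15.0 and 45.4 FPKM in all 10 tumors. NE4 was not the highest for any of these 3, and it was the lowest for Plin3. Fabp3, the fatty acid carrier of muscle, was at 55.5 FPKM in NE4 and had a median of 1.67 FPKM. Retnla, a resistin relative of macrophages, ranged from 0 to 46.4 FPKM and was also highest in NE4, and Retnlg, one of neutrophils, ranged from 0.0730 to 16.8 FPKM and was highest in E5.

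The receptors Ppard (4.05 to 5.20 FPKM) and Ppara (0.149 to 0.625 FPKM) had medians of 4.49 and 0.252 FPKM, beside 0.780 FPKM for Pparg. Plin5 and Ppara were highest in NE4, at 0.501 and 0.625 FPKM, and Cidea (1.22 FPKM), Lipg (3.46 FPKM) and Lipc (0.522 FPKM) in NE5. Cideb reached 0.108 FPKM at most. NE5 was also the tumor with keratinocyte markers, at a summed 34.1 FPKM against 1.17 to 2.41 FPKM in the others, and their part in these values was not tested. Of the 13 relatives, 10 were tested and 0 had an unadjusted p of at most 0.05 (edgeR's quasi-likelihood test), beside 4.86% of all genes tested.

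None of the other listed genes of the fat cell program was called, beside 0% of all 13517 genes tested. Of 8 regulators, 6 were tested and 0 were called. The highest were Srebf1, a factor for lipid synthesis genes (20.1 ± 1.71 FPKM in E and 17.1 ± 2.32 FPKM in NE, with SD over 5 tumors), Rxra, the partner of Pparg (12.5 ± 1.57 and 11.4 ± 1.86), and Cebpa (8.81 ± 2.05 and 8.98 ± 2.67). Srebf1 was the only one of the 6 at an unadjusted p of at most 0.05, beside 4.86% of all genes tested. Its log2 fold change was 0.21 ± 0.0925 (adjusted p = 0.897, edgeR's quasi-likelihood test).

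Of 20 genes for lipid uptake, synthesis and release, 16 were tested and 0 were called, and 8 of the 16 were highest in NE4, beside 19.7% of all genes tested. Scd1, a fatty acid desaturase (65.1 to 101 FPKM), Fasn, the fatty acid synthase (15.2 to 22.0 FPKM), and Pnpla2, the first lipase of fat breakdown (15.0 to 24.6 FPKM), were present in all tumors. Of 8 secreted or surface genes, all were tested, 0 were called and 5 of the 8 were highest in NE4. The adiponectin receptors Adipor1 (31.8 to 43.6 FPKM) and Adipor2 (19.1 to 23.7 FPKM) stood far above Adipoq, and Apln, a vascular peptide, lay between 8.70 and 24.6 FPKM.

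Of 7 further fat genes, 3 were tested and 0 were called. Car3, a carbonic anhydrase abundant in fat and in slow muscle, reached 459 FPKM in NE4 from a median of 11.4 FPKM, and Tmem120b (1.53 to 2.45 FPKM) and Trarg1 (0.103 to 0.633 FPKM) varied less. Of 5 genes of brown fat, 2 were tested and 0 were called. Cox8b, which muscle also makes, was at 62.0 FPKM in NE4, Elovl3 reached 3.43 FPKM in NE5 and Dio2 lay between 0.290 and 0.756 FPKM. Ucp1, the uncoupling protein that defines brown fat, was at 0 in 7 tumors and never passed 0.0592 FPKM.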

How the data were processed

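Messenger RNA of 10 tumors was sequenced (TruSeq, paired-end). The authors aligned the reads with Hisat2, computed expression with Stringtie, and deposited 1 table with a whole-number count and an FPKM per gene and tumor. Counts are raw. Each deposited FPKM is the count divided by gene length and total count (largest relative deviation 3.77e-14), so that they hold no TMM factor. The methods name a rat assembly (Rnor 6.0) for the alignment, while the table holds mouse Ensembl identifiers. Which assembly the table rests on could not be settled, and the counting tool and the use of strand are not given in the sources used here. Only 565 of 21902 genes matched by identifier had the same start and end as in GRCm38, so coordinates are those of GRCm38. In the table, 51 genes have an identifier but no symbol and were kept.

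Counts were tested in R 4.3.3 by edgeR 4.0.16 (filterByExpr on the groups, then TMM, glmQLFit and glmQLFTest, with Benjamini-Hochberg over 13517 genes), called from a 2-fold change with an FDR up to 0.05, and checked on simulated data. Lep and Retn did not pass the filter. The standard error beside an edgeR log2 fold change is its absolute value divided by the square root of the F statistic. It thus restates the quasi-likelihood test and is no separate evidence. Single genes were compared with exact permutation tests of log2(FPKM + 1), a pseudocount of 1, and relations with 100000 permutations (scipy 1.17.1). Alternatives included DESeq2 1.42.0, limma 3.58.1, other filters and leaving out each tumor.

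All 10 genes and their relatives are named with values, and of the wider lists the 3 highest genes by mean FPKM. Of other lists, Krt8, Ucp1, Myh4 and Tnnc2 were named after their values were seen. The genes and lists were chosen with earlier results of these data known. Each tumor came from a separate mouse, and the depth of 15045613 to 23092251 reads limits genes of a few reads.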

Additional observations from a re-analysis of the deposited data

Results flagged for a closer look

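In each group of 5 tumors, the highest or lowest tumor was marked where its gap to the next exceeded 0.71 of the range of the group (Dixon's 95% limit). Of 28 such groups, 15 were marked, where normally distributed values would give about 1.4. The FPKM of many of these genes are strongly skewed, so 1.4 is not the number to expect by chance here. The genes move together, so that these are not 15 separate events.

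NE4 was the marked tumor in 10 of them. It stood above the other NE tumors in Adipoq (8.11 FPKM), Plin1 (1.42 FPKM), Cidec (4.34 FPKM), Cfd (32.2 FPKM), Retn (2.21 FPKM), Plin4 (6.05 FPKM), Fabp4 (11.9 FPKM) and Lpl (16.2 FPKM). The summed adipocyte markers (55.8 FPKM) and the summed skeletal muscle markers (11697 FPKM) of NE4 were marked as well.

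E2 stood above the other E tumors in Adipoq (3.15 FPKM), Lep (0.0640 FPKM), Retn (0.747 FPKM) and Plin4 (1.02 FPKM). E5 stood above the other E tumors in the summed endothelial markers (47.6 FPKM).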

How the results depend on the processing

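No alternative changed the count of 0 genes called, apart from an unadjusted p of at most 0.05 with a fold change of at least 2, which gave 56 genes. At an unadjusted p of at most 0.05 alone there were 657 genes with edgeR and 800 with DESeq2, and DESeq2 had 3 genes at an FDR of at most 0.05 with any fold change. Of 171 values of the 10 genes under the alternatives, 160 kept their direction and 11 turned, 8 of them without NE4. By limma-voom with sample weights, Adipoq (0.65), Plin1 (0.10) and Fabp4 (0.15) turned as well, and the cause was not tested. When each tumor was left out in turn, the log2 fold change ranged from -2.23 to 1.14 for Adipoq, -1.96 to 0.35 for Plin1, -2.27 to 0.11 for Cidec, -2.07 to 0.24 for Cfd, -2.34 to 0.89 for Retn, -2.81 to 0.22 for Plin4, -0.61 to 0.32 for Fabp4 and -1.07 to 0.0512 for Lpl, with the upper end in each case without NE4. It ranged from -3.40 to -0.62 for Lep and from -0.64 to -0.29 for Pparg. The lower end was without NE1 for Fabp4, Lpl and Pparg and without E2 for the other 7 genes. Of 39 relations, 15 passed by r and 5 by rho with all tumors, and 3 by r without the 2 tumors farthest from the median. Without these, r turned to -0.0586 for Fabp4 and -0.282 for Lpl with the endothelial score, and to -0.104 for Lpl and -0.726 for Pparg with the muscle score. With at least 10 counts in every tumor only Fabp4, Lpl and Pparg could be tested.

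The study speaks of matched pairs, but neither the labels nor the methods used here say what was matched or that the tumor numbers mark a pair, and the methods give a random division. The deviations of same-numbered tumors of E and NE correlated at -0.325 to 0.316, and 1 of 5 E tumors correlated best with its own number. With the replicate block, 0 genes were called (smallest adjusted p 0.871), and the log2 fold change was -0.44 for Adipoq, -0.59 for Plin4 and -0.08 for Fabp4.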
